A study of Mus musculus with 4 samples.

Results

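The comparison described here set the heart of mice given a vector carrying Tbx6 against the heart of mice given phosphate-buffered saline (PBS), 30 days after the injection. It is the difference between 2 of the 4 arrays of the series, taken over the 19572 probe sets with a gene symbol among 28846 probe sets in all, or 19505 genes once a single probe set was kept for each gene. The animals of both groups were ICR (Jcl:ICR) mice, an outbred stock, injected at postnatal day 1 with 5 µl of either fluid. The growth protocol describes a subcutaneous injection on the back, whereas other label fields describe delivery to the neonatal heart. The sources used here do not give the kind of vector, the promoter that drives Tbx6, the sex of the animals or how many hearts made up an RNA sample. Because the controls received PBS without any vector, the vector and the gene cannot be told apart. Each group had 1 array, so no difference below has a replicate check or a p-value, and each also holds whatever set these particular hearts apart. The other 2 arrays, of hearts taken 7 days after the same injections, are given beside the main values.

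Tbx6 encodes a T-box transcription factor that the embryo uses to form the presomitic mesoderm, the tissue from which vertebrae, ribs and skeletal muscle arise. It is not known as a gene of the postnatal heart. A month after birth the mouse heart burns mainly fatty acids, has largely stopped dividing its muscle cells and expresses adult forms of its contractile proteins. RNA from a whole heart also carries transcripts of vessels, fibroblasts, macrophages, blood left in the chambers and the fat attached to the outside. In such RNA, fewer cells of a type and less RNA per cell cannot be told apart.

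Values are the log2 expression values deposited by the authors. Readings that did not exceed the brightest background probe set on the same array are described as at background. That limit was 6.05 on the PBS array and 5.82 on the Tbx6 array of day 30. Where 1 reading is at background, the difference is given as a bound against that limit, and where both are, none is given. At the other end, the scale has a top value, which 4 genes reached on the PBS array and 7 on the Tbx6 array, so the differences of the most abundant heart genes were compressed.

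The Tbx6 probe set itself read 3.57 after PBS and 3.66 after Tbx6, both at background, and 3.70 and 4.14 at day 7, also at background. It therefore does not check the labels. The heart markers were present on both arrays: all 14 genes of the heart identity list were above background, with the cardiac troponin T gene Tnnt2 at 19.82 after PBS and 19.84 after Tbx6. None of the 14 differed by 1.5-fold. For the brightest members a difference could hardly show, since Tnnt2 and Actc1 (19.70 on each array) lie near the top of the scale (19.93). Of the markers of neighbouring tissues, 9 of 10 lung epithelial, 9 of 10 liver, 12 of 13 lymphocyte and 11 of 15 fast skeletal muscle genes were at background on both arrays. The PBS array of day 7 stood apart from the other 3 in airway epithelial genes: Scgb1a1 (12.89 against 3.25 on the Tbx6 array of day 7), Scgb3a1 (10.80 against 4.59), Scgb3a2 (9.65 against 3.74) and Cyp2f2 (8.17 against 5.48) were above background there. The surfactant genes Sftpb and Sftpc were at background on both arrays of day 7. At day 30 Cyp2f2 was at background on the PBS array and read 6.31 on the Tbx6 array, at least 0.26 higher. Both day 30 arrays read the Y-linked genes Eif2s3y and Uty at background (2.15 and 2.16 for Eif2s3y, 3.43 and 3.28 for Uty). On both arrays of day 7 they were far above it (11.18 and 10.96, 10.34 and 10.76). The pairs of 1 day were thus alike in Y-linked RNA, and arrays of different days were not. Readings of day 7 and day 30 set side by side below therefore also come from RNA that differs in this.

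Differences were counted among 9753 genes, those in the upper part of all genes when ranked by their mean reading and split at the median (5.30), with a size rule of 1.5-fold. The number includes 894 genes at background on both arrays, which cannot pass. By this rule 10.2% of the genes differed. After Tbx6, 531 genes (5.44% of the 9753) were higher and 468 (4.8%) were lower. These shares are the background against which each gene list is read below. The median of the deposited differences over the same genes was 0.008, and list medians below are computed in the same way. A 2-fold difference was reached by 75 genes on the higher and 64 on the lower side. Among the 8219 genes above background on both arrays, 54.2% lay within 0.25 of no difference, and 1% lay below -0.92. The spread depended on the level. Of genes with a mean reading between 7 and 8, 15.2% passed 1.5-fold, against 4.76% of those above 14, so a list of abundant genes has fewer calls to begin with.

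**Figure D1:**
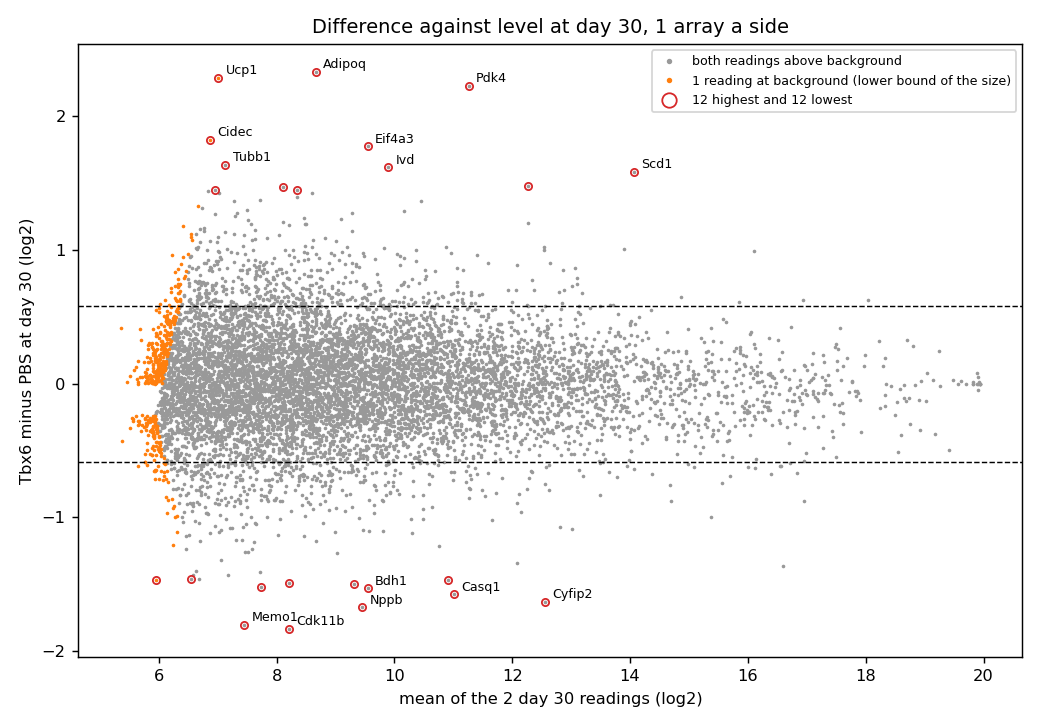
Difference between the Tbx6 and the PBS array of day 30 (vertical axis, log2) against the mean of both readings (horizontal axis, log2), 1 point per gene with a measured difference among the 9753 genes counted. Orange points are bounds with 1 reading at background, red circles are the 12 highest and 12 lowest genes, and dashed lines mark 1.5-fold. The scatter narrows toward abundant genes, and Adipoq, Ucp1 and Pdk4 stand above the rest at 2.33, 2.29 and 2.23.

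Fat cell genes headed the higher side. Adipoq encodes adiponectin, a hormone secreted by fat cells. Its readings were 7.49 after PBS and 9.83 after Tbx6, a log2 difference of 2.33 or 5.04-fold. Lipe, which encodes hormone-sensitive lipase, read 8.64 and 9.92 (1.28, or 2.43-fold). Pparg, the master transcription factor of fat cell formation, read 7.66 and 8.51 (0.85). Cidec, which enlarges lipid droplets, was at background after PBS and read 7.88 after Tbx6, a difference of at least 1.83. Ucp1, the uncoupling protein that lets brown fat make heat, was also at background after PBS and read 8.34 after Tbx6, at least 2.29 higher. Of 15 measured white adipocyte genes 9 were counted, of which 5 were higher and 0 lower by 1.5-fold, with a median of 0.61 over the 9. The fifth was Thrsp (9.85 and 10.46), a regulator of fat synthesis. The brown adipocyte list had 2 of 6 higher and 0 lower, the other being the lipid droplet gene Cidea at 0.62. Its median was 0.34 over the 6, and 0.16 over the 5 above background on both arrays. Kcnk3 (0.52), Cpt1b (0.16), Cox8b (0.03) and Ebf2 (-0.03) were inside 1.5-fold.

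Not every fat marker was detected. Plin1, Lep, Adig, Acvr1c, Cebpa and Slc7a10 were at background on both arrays, as were 5 of 11 measured brown adipocyte genes, among them Dio2, Prdm16 and Zic1. Fabp4, which heart capillaries express as well, read 16.46 and 16.70, and Plin4 read 10.46 and 10.83. The summed level of the white adipocyte list, which Fabp4 dominates, was 16.51 after PBS and 16.78 after Tbx6. The arrays of day 7 set the same genes in another order. Adipoq read 7.98 after PBS and 6.08 after Tbx6 there, and Ucp1 read 11.92 and 7.60, so that on day 7 the PBS array was the higher one. That array also held the airway genes, with a summed lung epithelial level of 13.37 against 7.43 on its Tbx6 partner, and 7.42 and 7.81 at day 30. Their part in the day 7 differences was not tested. At day 30 Upk3b, a marker of the mesothelium that covers the heart, read 9.85 on the PBS and 10.50 on the Tbx6 array, while the mesothelial genes Msln and Wt1 were at background on both arrays. How far fat attached to the hearts entered these readings was not tested.

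Enzymes that make fatty acids differed with the fat cell genes in part. Acetyl-CoA carboxylase (Acaca) read 6.91 after PBS and 7.95 after Tbx6, and fatty acid synthase (Fasn) read 8.74 and 9.71. Stearoyl-CoA desaturase 1 (Scd1), which puts the first double bond into saturated fatty acids, read 13.28 and 14.86 (1.58). Its close relative Scd4 went the other way, from 8.49 to 6.98, and the desaturase Fads1 from 8.25 to 7.41. The list as a whole had 3 of 17 higher and 2 lower, with a median of 0.18. The neighbouring members Acly (0.45), Acacb (0.16) and Fads2 (-0.13) were inside 1.5-fold. The Scd genes are near copies of each other, and signal of one on the probes of another cannot be separated here.

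Pdk4 was the largest difference outside the fat cell genes. Its product switches off pyruvate dehydrogenase, the entry of glucose carbon into the mitochondria, in fasting and after activation of PPAR receptors. Readings were 10.14 after PBS and 12.37 after Tbx6 (2.23, or 4.69-fold). Both arrays of day 7 read 12.63 and 12.69, so the PBS array of day 30 was the low one of the 4. Txnip, which limits glucose uptake, showed the same order, with 15.61 after PBS and 16.60 after Tbx6 at day 30 beside 16.96 and 16.87 at day 7. Other fasting genes that passed 1.5-fold were Klf15 (7.21 and 8.08), a transcription factor of fasting metabolism, the mitochondrial thioesterase Acot2 (12.73 and 13.47) and the uncoupling protein Ucp3 (7.24 and 8.04). In all, 5 of 18 counted members of the PPAR and fasting list were higher and 0 lower, with a median of 0.33. Not all known PPAR targets passed 1.5-fold. Acot1 (0.14), Plin2 (0.04), Plin5 (-0.31) and the receptor gene Ppara (-0.03) were inside 1.5-fold, and Fgf21 was at background. Cpt1a read 9.53 and 10.10 (0.56, just inside 1.5-fold). Angptl4 was at background after PBS and at least 0.34 higher after Tbx6. Of the 16 list members above background on both arrays, 11 had a difference above 0.

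The enzymes of the pathways that Pdk4 and PPARs govern differed little. Of 21 fatty acid oxidation genes 2 were higher, Acads (10.23 and 10.91) and Eci1 (10.87 and 11.47), and 1 was lower, the complex I assembly factor and dehydrogenase Acad9 (9.59 and 8.97). The median was 0.13. In the pyruvate dehydrogenase list Pdk4 was the single call among 11 genes, and the subunits Pdha1, Pdhb and Dlat differed by 0.06, 0.22 and 0.04. Pdk2, the other abundant kinase of the complex in the heart, read 16.95 and 17.06. Fatty acid uptake genes had 2 of 13 higher, Lipe and the transporter Slc27a1 (12.53 and 13.23), and 1 lower, the lipase inhibitor G0s2, by at least 0.69. The main uptake genes of the heart, Cd36 and Lpl, differed by -0.01 and -0.07. Oxidative phosphorylation had 0 calls among 27 genes and a median near 0 (0.00051), and the tricarboxylic acid cycle had 1 among 19, Sucla2 (6.73 and 7.46).

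Glycolysis leaned the other way with few calls. Of 23 counted genes of glycolysis and glycogen 5 had a difference above 0, with a median of -0.13. Fructose-bisphosphatase 2 (Fbp2), which runs a glycolytic step in reverse, was higher at 7.17 and 8.10, and the glycogen branching enzyme Gbe1 was lower at 7.26 and 6.66. Ketone body use had 1 call in 5 genes, Bdh1, the mitochondrial hydroxybutyrate dehydrogenase, at 10.31 after PBS and 8.78 after Tbx6 (-1.53). The next enzyme of that route, Oxct1, read 17.39 and 17.15. Isovaleryl-CoA dehydrogenase (Ivd), an enzyme of leucine breakdown, read 9.09 and 10.71 (1.62), and the branched-chain aminotransferase Bcat2 read 10.99 and 11.60. The other 18 genes of branched-chain amino acid breakdown were inside 1.5-fold, and the median of the list was -0.0058.

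**Figure D2:**
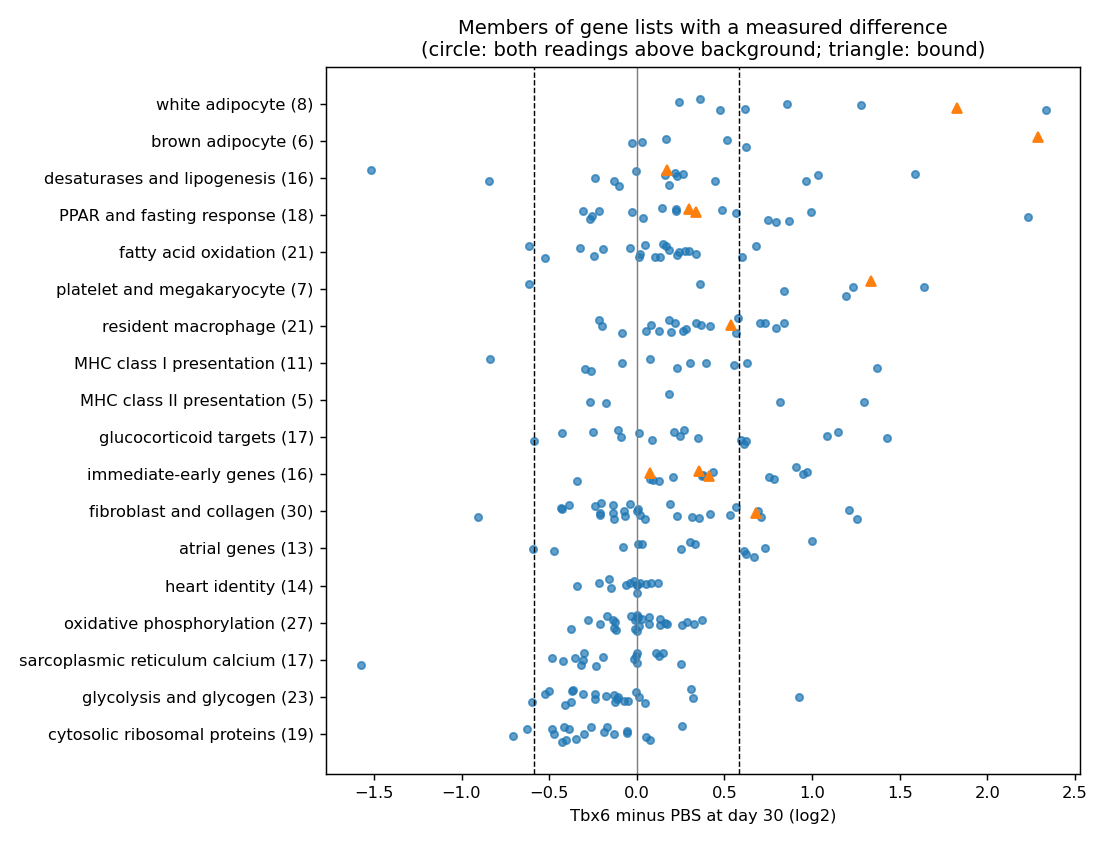
Difference between the Tbx6 and the PBS array of day 30 (horizontal axis, log2) for members of 18 gene lists, 1 symbol per gene that passed the expression filter and has a measured difference, with their number in brackets. Circles have both readings above background, triangles are bounds, and dashed lines mark 1.5-fold. Adipoq of the white adipocyte list lies farthest to the right at 2.33, followed by Ucp1 of the brown adipocyte list at 2.29 and Pdk4 of the PPAR and fasting list at 2.23. Heart identity genes, of which the brightest are near the top of the scale, and oxidative phosphorylation genes lie inside the dashed lines.

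Platelet genes had the largest share of calls of the 52 lists. Of 10 measured genes 7 were counted, of which 5 were higher and 1 was lower by 1.5-fold, with a median of 1.19 against 0.008 over all counted genes. Tubb1, the beta tubulin of the platelet rim, read 6.31 after PBS and 7.95 after Tbx6 (1.64). Ppbp, a chemokine precursor stored in platelet granules, read 8.49 and 9.72 (1.23). The ADP receptor gene P2ry12 read 7.88 and 9.08 (1.19), and platelet factor 4 (Pf4) read 7.33 and 8.17 (0.84). Gp9, a subunit of the receptor that catches von Willebrand factor, was at background after PBS and at 7.38 after Tbx6, at least 1.33 higher. Against these, the integrin gene Itga2b read 7.34 and 6.72 (-0.61), and Clec1b read 6.79 and 7.15 (0.36). Treml1, Gp5 and Gp6 were at background on both arrays.

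At day 30 the platelet list summed to 10.24 on the PBS array and 11.23 on the Tbx6 array, above 9.04 and 8.85 at day 7. Another 3 genes known from platelets and megakaryocytes were picked out after their values had been seen: Rgs18 (6.20 and 7.35), Itgb3 (6.45 and 7.51) and Mmrn1 (6.16 and 7.18). Chosen in this way, they are examples and add no support to the list. Of 5 measured red cell genes 3 were at background on both arrays, and the list summed to 9.70 on the PBS and 10.01 on the Tbx6 array. The globin genes Hba-a1, Hba-a2, Hbb-bt and Hbb-bs of that list matched no symbol on the array, so the sum leaves them out. Alas2, which starts haem synthesis in erythroid cells, read 9.24 and 9.82 (0.58, just inside 1.5-fold), and the band 3 gene Slc4a1 read 7.53 and 6.55 (-0.98). Pf4 and P2ry12 are also transcribed in tissue macrophages. The amount of blood left in the hearts is not given in the sources used here, and its part in these readings was not tested.

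Macrophage genes were higher as a list by a smaller amount. Of 22 counted genes of resident macrophages 4 were higher (18.2% against 5.44% of all counted genes) and 0 lower, with a median of 0.27. They were C1qb (9.40 and 10.11), of the first complement component, the Fc receptor chain Fcer1g (7.78 and 8.57), the engulfment receptor Mertk (6.71 and 7.45) and Pf4. The marker Adgre1 read 7.01 and 7.58 (0.57), and C1qa read 7.44 and 8.01 (0.58), both just inside 1.5-fold. Csf1r, the receptor that keeps these cells alive, read 9.27 and 9.33, and the resident markers Lyve1 and Folr2 differed by 0.19 and 0.28. Monocyte and neutrophil genes were mostly undetected, with 14 of 16 at background on both arrays, Ccr2 and S100a8 included.

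Antigen presentation genes held large and small differences side by side. H2-D1, a class I heavy chain, read 6.60 after PBS and 7.97 after Tbx6 (1.37), while another, H2-K1, read 9.81 and 10.21 (0.40). Their shared light chain B2m read 16.62 and 17.25 (0.63). Tapbp, which loads peptide onto class I, was lower at 10.74 and 9.90. Of 13 counted class I genes 2 were higher and 1 lower, with a median of 0.075. At day 7, 0 were higher and 4 lower, with B2m at 17.45 after PBS and 15.60 after Tbx6 and H2-K1 at 10.72 and 8.95. The PBS array of day 7 is the one with the airway genes, whose part in this was not tested. Of the class II genes, H2-Aa read 6.85 and 8.14 (1.30) and H2-Ab1 read 7.60 and 8.42 (0.82), while H2-Eb1 and the class II activator Ciita were at background on both arrays. These genes vary in sequence between mice, and the stock is outbred, so that probe binding and expression cannot be told apart for them. None of the 17 counted interferon-stimulated and DNA sensing genes passed 1.5-fold in either direction. The largest in size was Ifit3b at -0.56, and the viral DNA sensors Cgas, Tlr9 and Zbp1 were at background on both arrays.

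Rapidly induced and hormone-responsive genes formed another group on the higher side. Cebpd, a transcription factor of the acute-phase response and of early fat cell formation, read 7.89 after PBS and 9.32 after Tbx6 (1.43). Errfi1, a feedback inhibitor of the epidermal growth factor receptor, read 8.70 and 9.85 (1.15), and the serum- and glucocorticoid-regulated kinase gene Sgk1 read 8.27 and 9.36 (1.09). The clock gene Per1 was 0.61 higher. The NF-kappaB inhibitor gene Nfkbia read 8.80 and 9.39, and the iron-binding acute-phase gene Lcn2 read 6.34 and 6.97. Together these are 6 of 17 counted glucocorticoid targets that were higher, with 0 lower and a median of 0.25. The summed level of that list, in which bright genes weigh most, was lower, at 18.04 after PBS and 17.84 after Tbx6. The best known reporters of the hormone differed less, with Fkbp5 at 0.09, Tsc22d3 at 0.35 and the metallothionein gene Mt2 at -0.43. The receptor gene Nr3c1 itself read 7.77 and 7.19 (-0.58).

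Immediate-early genes had 5 of 19 higher and 0 lower, with a median of 0.37. Jun read 8.19 and 9.16, Klf2, a flow-responsive factor of the endothelium, read 6.57 and 7.52, and Zfp36, which destabilises cytokine messages, was 0.75 higher. The matricellular genes Ccn1 (11.14 and 12.05) and Ccn2 (9.90 and 10.69) completed the 5. Fos, Fosb, Egr2, Egr3, Nr4a3, Ier2 and Myc were at background on both arrays, and Egr1 read 7.30 and 7.67. At day 7 the median of the list was -0.51, so the Tbx6 array was the lower of that pair. The PBS array of that pair is the one with the airway genes, whose part in this was not tested. There Sgk1 read 8.95 after PBS and 7.75 after Tbx6, Jun 10.08 and 9.14, and Ccn1 11.95 and 10.25, and 8 of the 19 counted genes were lower by 1.5-fold against 7.23% of all counted genes. The sources used here do not give the hour at which the hearts were taken.

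Circadian clock genes, whose messages swing over the day, gave 2 calls. Of 17 counted genes 1 was higher (Per1) and 1 lower (Ciart, 9.60 and 8.97). Dbp, whose level swings widely over the day, read 17.65 and 17.25, and Nr1d1 read 11.88 and 11.57. Per2 differed by 0.38, Cry1 by 0.44, Nr1d2 by 0.46 and Per3 by -0.03.

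**Figure D3:**
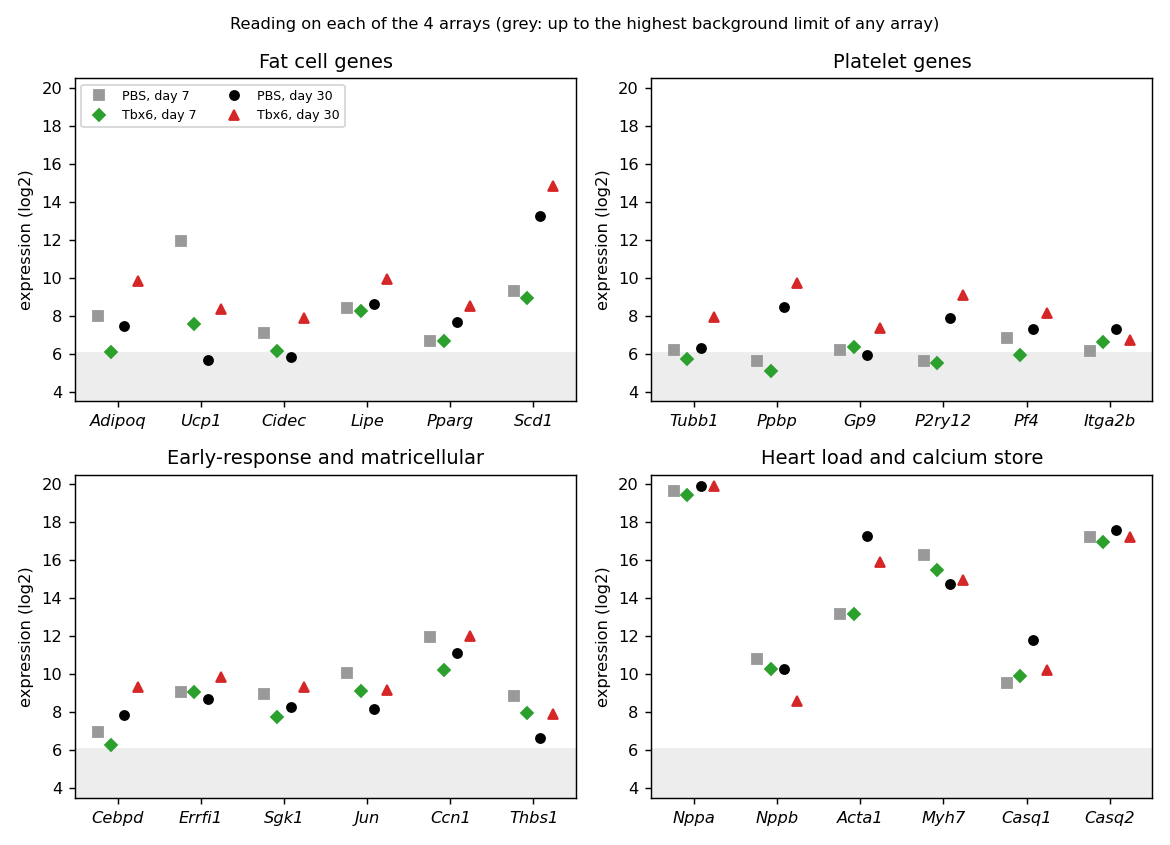
Readings (vertical axis, log2) of 24 genes on each of the 4 arrays, with squares and diamonds for PBS and Tbx6 at day 7 and circles and triangles for PBS and Tbx6 at day 30. The grey band reaches to the highest background limit. The Tbx6 array of day 30 is above the PBS array of that day for 5 of the 6 platelet genes, and Nppb is lowest on the Tbx6 array of day 30 at 8.62.

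The natriuretic peptide gene Nppb, the actin gene Acta1 and the calcium-store gene Casq1 were among the lower genes. Their lists had 2 of 9 (natriuretic peptides and receptors), 2 of 13 (cardiac stress) and 1 of 18 (calcium store) counted genes lower, the last near the 4.8% over all counted genes, with medians of -0.13, -0.06 and -0.10. Nppb, which encodes B-type natriuretic peptide and is raised by stretch of the ventricle, read 10.29 after PBS and 8.62 after Tbx6 (-1.67, or 3.19-fold lower). The day 7 arrays read 10.79 and 10.28, so the Tbx6 array of day 30 was the low one of the 4. Nppa, the atrial natriuretic peptide gene, was at 19.92 and 19.93, the top of the scale, where a difference could not show. The natriuretic clearance receptor gene Npr3 read 10.25 and 9.52. Acta1, the skeletal actin that the loaded heart also expresses, read 17.28 and 15.92 (-1.36, or 2.57-fold lower), far above both arrays of day 7 (13.18 and 13.19). Other genes of the load response did not follow, with Myh7 at 14.78 and 14.95, Ankrd1 at 17.46 and 17.56, Xirp2 at 10.94 and 10.50 and Rcan1 at 9.80 and 9.77. Of 13 counted cardiac stress and fetal genes 2 were lower and 1 was higher, the matrix gene Postn (10.34 and 11.03).

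Casq1, the calcium-binding protein of the skeletal muscle calcium store, read 11.80 after PBS and 10.23 after Tbx6 (-1.57). Casq2, the cardiac form, read 17.60 and 17.24 (-0.35). Of 18 counted genes of sarcoplasmic reticulum calcium handling Casq1 was the single call, and 4 of the 17 above background on both arrays had a difference above 0. Atp2a2 and Pln, the calcium pump and its inhibitor, had equal readings at or near the top of the scale. Acta1 was also the single call in the fast skeletal muscle list, in which Myl1 read 16.83 and 16.50 and the fast myosin genes Myh1, Myh2 and Myh4 were at background on both arrays. In the smooth muscle list Acta2 (17.39 and 16.51) and the myosin light chain gene Myl9 (11.35 and 10.63) were lower, while Myh11, the defining smooth muscle myosin, read 9.40 and 9.57. Among 21 sarcomere genes 1 passed 1.5-fold, Synpo2l at 10.28 and 10.90.

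The start regions of 3 of these genes are shown because they hold the letters CATTCC, the core of the M-CAT element bound by TEAD factors, and because the genes went in different directions. Tead1 itself read 12.65 after PBS and 13.38 after Tbx6 (0.73). Each sequence covers 250 bases before to 50 bases after the start of transcription in RefSeq (GRCm38.p6), read in the direction of the gene, with CATTCC or its reverse complement GGAATG in capitals. They lie at chr4:147985650-147985949 (plus strand), chr8:123894726-123895025 (minus strand) and chr3:145649936-145650235 (minus strand).
Nppb: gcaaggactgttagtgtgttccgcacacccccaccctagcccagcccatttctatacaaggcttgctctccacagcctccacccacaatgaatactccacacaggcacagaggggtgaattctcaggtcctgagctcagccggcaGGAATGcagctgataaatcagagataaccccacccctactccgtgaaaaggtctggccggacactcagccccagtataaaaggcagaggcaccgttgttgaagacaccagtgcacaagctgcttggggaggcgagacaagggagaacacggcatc
Acta1: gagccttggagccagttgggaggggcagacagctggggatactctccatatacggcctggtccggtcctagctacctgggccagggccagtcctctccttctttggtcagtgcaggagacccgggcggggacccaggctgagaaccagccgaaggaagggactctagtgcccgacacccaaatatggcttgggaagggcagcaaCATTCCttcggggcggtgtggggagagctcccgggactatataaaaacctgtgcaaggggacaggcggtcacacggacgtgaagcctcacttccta
Ccn1: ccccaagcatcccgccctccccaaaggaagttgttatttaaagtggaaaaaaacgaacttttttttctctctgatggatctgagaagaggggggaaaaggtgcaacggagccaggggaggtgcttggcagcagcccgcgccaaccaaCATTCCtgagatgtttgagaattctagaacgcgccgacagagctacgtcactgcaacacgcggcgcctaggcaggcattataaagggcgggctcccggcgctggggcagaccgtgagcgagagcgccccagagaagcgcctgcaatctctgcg

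Each of the 3 regions holds the motif 1 time, with its first base at -105 (Nppb), -46 (Acta1) and -103 (Ccn1) counted from the start of transcription. The motif is common. Searched on both strands, it was in 14.7% of all 32851 start regions of the table and in 14.5% of the 7905 counted genes that have one. It was in 12% of those called higher and 14.1% of those called lower, so the share did not stand out on either side. A match of letters is a description and does not show that a factor binds.

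Matrix genes showed a few large differences in a list that was otherwise even. Thrombospondin 1 (Thbs1), a matricellular protein that platelets also carry, read 6.66 after PBS and 7.92 after Tbx6 (1.25). Fibulin 2 (Fbln2) read 7.51 and 8.72 (1.21), Col15a1 read 6.79 and 7.50, and the cross-linking enzyme Lox was at background after PBS and at least 0.68 higher after Tbx6. With Postn, these were the 5 of 33 counted fibroblast and collagen genes that were higher, and Ddr2, a collagen receptor, was the 1 that was lower (10.10 and 9.19). The main fibrillar collagens differed little, with Col1a1 at 0.42, Col1a2 at 0.23 and Col3a1 at -0.07, and the median of the list was 0.0071. Of 22 counted endothelial genes 1 passed 1.5-fold, Npr3, named above.

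Atrial genes had 5 of 14 higher and 1 lower, with a median of 0.28. Kcnj3, a subunit of the acetylcholine-gated potassium channel of the atrium, read 12.05 and 13.05. The potassium channel gene Kcna5 read 7.47 and 8.14, and the atrial light chain gene Myl7 read 15.54 and 16.15. Stard10 and Clu were higher by 0.73 and 0.63, while Bmp10, which the right atrium secretes, was lower at 13.78 and 13.19. Sln and Myl4, also atrial, differed by 0.25 and 0.33. How much atrium each sample held is not given in the sources used here, and its part in these values was not tested. Of 16 counted cardiac transcription factors Tead1 was the single call, and Gata4, Mef2c and Tbx5 differed by 0.05, 0.10 and -0.18.

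Genes of the protein synthesis machinery were lower by small amounts. Of 19 ribosomal protein genes 16 had a difference below 0, with a median of -0.30 against 0.008 over all counted genes. Rpsa read 12.17 after PBS and 11.46 after Tbx6 (-0.71) and Rps18 read 12.88 and 12.26 (-0.62), the 2 that passed 1.5-fold. Rps6 (17.10 and 17.17), Rplp1 and Rps19 (9.02 and 9.28) were the exceptions. Many ribosomal protein genes have near-identical copies elsewhere in the genome that share probes. At day 7 the median of the same list was 0.026. Chaperones had a median of -0.18 with 1 call, Dnajb1 (7.11 and 8.11), on the other side, and the abundant small heat shock genes Cryab and Hspb6 differed by -0.51 and -0.50.

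Cell cycle genes gave little to compare. Of 27 measured genes of mitosis 21 were at background on both arrays and 4 were above it on both. None of the 13 counted passed 1.5-fold, but the filter uses the mean of all 4 arrays. Genes such as Ccna2 (8.98 and 8.33 at day 7, 3.80 and 3.74 at day 30) were therefore counted although they could not pass. The replication list had 9 genes above background on both arrays. Among its 14 counted genes 1 passed 1.5-fold, the ribonucleotide reductase subunit Rrm1 (7.05 and 7.98). Of the early mesoderm genes among which Tbx6 acts in the embryo, 13 of 16 were at background on both arrays. The 2 that passed 1.5-fold went in opposite directions, Meox2 (8.80 and 9.47) higher and Lfng (6.89 and 6.20) lower. Other T-box genes of the adult heart, Tbx5 and Tbx20, read 9.72 and 9.55, and 13.84 and 14.14.

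Detoxification genes held 3 calls of 19 on the higher side and 1 on the lower. Gclm, the regulatory subunit of the enzyme that makes glutathione, read 9.76 after PBS and 11.13 after Tbx6 (1.37), while its catalytic partner Gclc read 7.37 and 6.98. The glutathione transferase Gsta3 read 7.37 and 8.84 (1.47), Gstp1 read 10.19 and 10.79, and Gstt1 was at least 0.65 lower. Nqo1, Hmox1 and Txnrd1, which share a regulator with Gclm, differed by -0.01, -0.06 and -0.19.

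Among the 24 largest differences were also genes that are in none of the gene lists. Eif4a3, a core protein of the complex left on spliced messages, read 8.66 after PBS and 10.43 after Tbx6 (1.78), and Car3, a carbonic anhydrase of fat and muscle, read 11.53 and 13.01 (1.48). Cyp39a1, an oxysterol hydroxylase, and the deubiquitinase Usp11 were higher by 1.45 each. Lower were the cell-cycle-related kinase Cdk11b (9.13 and 7.30), Memo1 (8.36 and 6.55), the actin regulator Cyfip2 (13.37 and 11.74), the lipid phosphatase Mtmr2 (10.07 and 8.57) and the cadherin Celsr3 (11.65 and 10.18). Mir1a-1hg, the host transcript of muscle microRNA genes, read 8.96 and 7.47, and Iffo2 read 7.28 and 5.82. The carbohydrate kinase gene Fggy was at background after Tbx6 and at least 1.47 lower.

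The pair of day 7 shares no array with that of day 30 and is set beside it for these genes. Its PBS array is the one with the airway genes. Of the 12 highest genes of day 30, Ivd was also higher by 1.5-fold at day 7 (0.67), and Adipoq, Ucp1, Cidec and Car3 were lower. Of the 12 lowest, Cdk11b was also lower (-0.85) and Scd4 was higher (3.81). Of the 531 genes higher at day 30, 57 were higher and 65 lower at day 7, and of the 468 lower genes 41 were lower and 37 higher. Over all counted genes 6.12% were higher and 7.23% were lower at day 7.

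**Figure D4:**
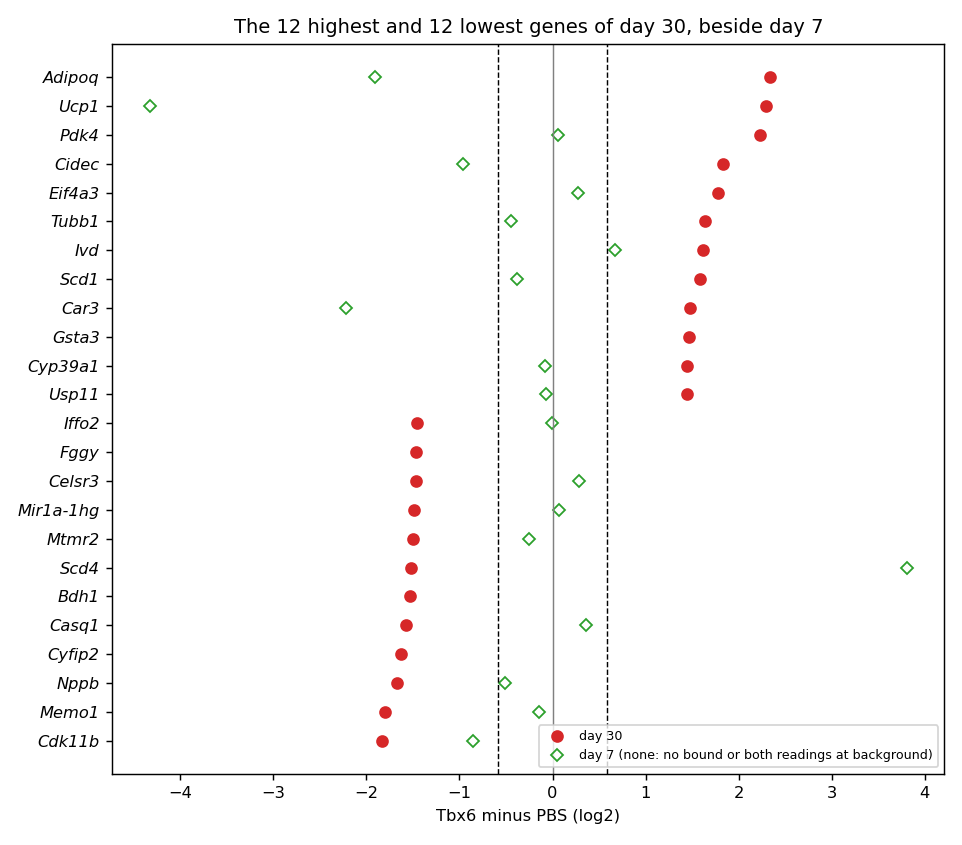
Difference between the Tbx6 and the PBS array (horizontal axis, log2) for the 12 highest and 12 lowest genes of day 30, at day 30 (red) and at day 7 (green, absent where no difference is given). Dashed lines mark 1.5-fold. Most day 7 values lie inside the lines, and Adipoq, Ucp1, Cidec, Car3 and Scd4 lie beyond them on the opposite side.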

How the data were processed

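Per the labels, heart RNA was amplified, biotin-labelled as single-stranded cDNA and hybridised to mouse Clariom S arrays (1 colour). The authors deposited log2 expression values made with SST-RMA in Affymetrix Expression Console 1.4, per the series design and the submitters' processing notes. The base is not stated, and 2 was inferred from the size of the values. The build is not given in the sources used here.

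Symbols came from the platform annotation. Of 28846 probe sets 19572 had 1 symbol, 0 had several, and all 19572 Entrez identifiers matched RefSeq (GRCm38.p6) with the same symbol. For the 55 genes with several probe sets the one with the highest mean was kept. Background limits came from 23 background probe sets. No further normalization or statistical test was applied, since each group has 1 array, and the number of arrays limits the precision. The calling step was run on simulated data with differences well past the size rule and little noise. That checks the code and not how many of the calls are errors. Python 3.11.15, numpy 2.4.6, pandas 2.3.3 and matplotlib 3.10.9 were used.

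A set of genes, called the named genes, was fixed by rule. It held Tbx6 and the 12 highest and 12 lowest counted genes without predicted genes. From each of 52 gene lists it also held the first 4 members and up to 6 largest differences. The text gives only a part of this set, and that part was chosen with the values known. Other list members appear as examples of small differences, chosen after their values were seen. Of 948 list entries 857 matched a symbol on the array. The comparison, the lists and the rule were chosen with earlier results of these data known.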

Additional observations from a re-analysis of the deposited data

Results flagged for a closer look

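The difference between injections took opposite directions on the 2 days, by at least 2-fold each time, in 5 of the named genes. Adipoq differed by 2.33 at day 30 and -1.91 at day 7, Ucp1 by at least 2.29 and by -4.32, and Car3 by 1.48 and -2.22. Sgk1 differed by 1.09 at day 30 and -1.2 at day 7, and Scd4 by -1.52 and 3.81. In Adipoq, Ucp1, Car3 and Sgk1 the higher reading of day 7 was on the PBS array. That array also read high for airway genes, with a summed lung epithelial level of 13.37 against 7.43 on the Tbx6 array of day 7, whose part in these values was not tested. With 1 array per group, the difference between days was not tested.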

How the results depend on the processing

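Under every alternative that kept the 1.5-fold rule, the counts of higher and lower genes stayed within 1.5 times 531 and 468. With readings at background taken as they stand they were 695 and 591. The 2-fold rule gave 75 and 64. The limit of the PBS array is set by 1 background probe set, and taking it for both arrays, chosen after seeing the data, gave 531 and 441. Of the 98 named genes past 1.5-fold, 96 were still past it in the same direction after quantile normalization, and 98 after centring. The medians over all genes were 5.295 on the PBS and 5.296 on the Tbx6 array, so centring could hardly change a call. With all measured members, undetected ones included, the median turned to -0.25 for Schwann and neuronal genes (1 counted member) and 0.028 for fast skeletal muscle genes. The mean of its probe sets moved Rora from 0.53 to 0.085. Leaving out a replicate was not possible with 1 array per group. No paired analysis was possible because each group has 1 array. Where probe sets of 1 gene could be compared (17 genes), their differences lay a median of 0.41 apart, and 1.6 at most.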

Other observations

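Other genes past 2-fold, picked out after their values were seen, were as follows on the PBS and Tbx6 arrays of day 30. Depp1, known as a target of FOXO factors, read 9.52 and 10.81 (day 7: 9.56 and 8.39). The salt-inducible kinase gene Sik1 read 7.90 and 9.10 (day 7: 8.71 and 7.73). Gpd1, the glycerol phosphate dehydrogenase of the cytosol, read 9.32 and 10.34. Smyd1, a muscle methyltransferase, read 12.03 and 13.05. On the lower side, the transferrin receptor gene Tfrc read 12.76 and 11.41, the kinase gene Alpk3, known from inherited cardiomyopathy, 12.16 and 11.14, and Eed, a core subunit of Polycomb complex PRC2, 7.41 and 5.95.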
